A study of Homo sapiens with 4 samples.

Results

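The genes described here are 38 lysosomal acid hydrolases other than cathepsins, with the proteins that activate, modify and sort them. They were taken by gene symbol from a table of 61541 Ensembl genes, and each symbol matched 1 gene. RNA was sequenced from 4 libraries of MHCC97H cells, an established human hepatocellular carcinoma (HCC) line. Control cells (shCon) and cells with a knockdown of UBXN1, a cofactor of the ubiquitin-dependent ATPase VCP, were represented by 2 libraries each. By the study's methods the shRNA was carried by a lentiviral pLKO.1 vector, so both groups received a vector, and the control shRNA is named shCon in the sample labels and shRFP in the methods. Which UBXN1 shRNA the sequenced cells carried is not given in the sources used here, and the labels do not say whether the libraries of a group came from separate cultures, so p-values measure the spread between these libraries.

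Lysosomal hydrolases work at acid pH and take apart glycans, sulfated sugars, lipids, proteins and nucleic acids that reach the lysosome. Most are made in the endoplasmic reticulum, tagged with mannose 6-phosphate in the Golgi and carried to the lysosome by mannose 6-phosphate receptors. Loss of a single hydrolase leads to storage of its substrate. Many of the genes carry a short E-box in the promoter that is bound by TFEB and its relatives, transcription factors that raise lysosomal gene expression.

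Total counts per library were 27380508 and 24305174 in shCon against 23433826 and 23373700 counts in shUBXN1. UBXN1 counts were 1788 and 1817 in shCon against 416 and 433 in shUBXN1, which left 24.5% of the control level (log2 fold change -2.03). Counts on the mitochondrial genome made up 5.28% and 5.59% of the shCon libraries and 7.43% and 8.27% of the shUBXN1 libraries. Of 12 hepatocyte and HCC markers, 11 passed the filter on low counts, 7 of them lower and 2 higher in shUBXN1, and GPC3 was at 0 in every library. Beside these and the marker counts below, 28.2% of all genes tested were lower and 28.0% higher at an adjusted p under 0.05. ALB, the albumin gene of hepatocytes, was low, with 479 and 403 counts in shCon against 104 and 112 in shUBXN1. Macrophages are rich in lysosomal enzymes. Of their 7 markers 5 were tested, of which 2 were lower and 3 not called, and the 7 summed to 104 and 108 TPM (a level scaled for gene length and library size) in shCon against 97.3 and 87.3 TPM in shUBXN1, nearly all of it CD68. The leukocyte gene PTPRC and the macrophage receptor gene CSF1R had at most 4 counts in any library. The 6 fibroblast markers (3 tested, 1 higher and 2 lower) summed to 25.2 and 24.8 TPM in shCon and to 12.6 and 13.7 TPM in shUBXN1. LUM made up nearly all of these sums, at 24.1 and 23.9 TPM in shCon against 11.3 and 12.55 TPM in shUBXN1. The marker called higher was COL1A1, at low counts, 10 and 4 in shCon against 58 and 59 in shUBXN1. For 4 endothelial markers (3 tested, 2 higher and 1 not called) the sums were 15.2 and 15.3 TPM in shCon against 31.9 and 32.1 TPM in shUBXN1. Nearly all of this came from PECAM1 and KDR. PECAM1 had 9.97 and 9.61 TPM in shCon against 13.7 and 12.4 TPM in shUBXN1, and KDR 5.09 and 5.35 TPM against 17.9 and 19.5 TPM. The part of these shifts, and of the mitochondrial share, in the results was not tested. The labels name MHCC97H cells for every library, so these markers are given as RNA levels in that line, not as shares of other cell types. In bulk RNA, fewer cells of the line with a transcript and less of it per cell cannot be told apart.

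E-boxes of the type bound by TFEB were searched in RefSeq promoter windows (GRCh38.p14), which run from 250 bases before to 50 bases after a start site. The search covered CACGTG and the longer TCACGTGA, which contains it, and both read the same on either strand. Windows were held for 29 of the 38 genes, and those of ARSA, ASAH1, HEXA, HGSNAT, LGMN, MANBA, NAGLU, PSAP and SGSH were not used here. CACGTG was found in 10 of the 29 genes (34.5%), against 12.2% of the 11671 tested genes with a window and 8.8% of all 27305 genes with one. Counted by window, it was in 25.0% of the 40 windows of the list and in 7.3% of all 35116 windows. TCACGTGA was found in 5 of the 29 genes (17.2%), against 2.1% of the tested genes with a window and 1.2% of all genes with one. These are matches of letters and not evidence of binding in these cells. The following sites are examples, from the largest rise of the list (ACP5) to genes with no call (NAGPA and GNPTG). M6PR, the only gene called lower with a match, is not among them. Capitals mark the E-box, and the centre of each site shown lies before the RefSeq start site of its window.
ACP5 (chr19:11577811-11577836, minus strand, at 1 of its 4 annotated start windows): ggctgctgcaCACGTGtgcccagatc
GAA (chr17:80101494-80101521, plus strand): ggaggccgcgTCACGTGAcccaccgcgg
GAA (chr17:80101539-80101566, plus strand): ctcccgccggTCACGTGAcccgcctctg
SUMF1 (chr3:4467267-4467292, minus strand): agggctcagcCACGTGaccaaccggg
GALNS (chr16:88857105-88857132, minus strand): aggcaccgcgTCACGTGAcccgccgctg
IGF2R (chr6:159969043-159969070, plus strand): cgggcggctgTCACGTGAcgcggttccg
NAGPA (chr16:5033939-5033966, minus strand): gggacttgagTCACGTGAggcgagccca
GNPTG (chr16:1351908-1351935, plus strand): gtccccgtggTCACGTGAccgtcacttc
The other genes with a match, all of the shorter form, were ARSB, NEU1 and M6PR. IGF2R held 3 copies of the longer form and GAA and GNPTG held 2 each. By the calls of the knockdown comparison, CACGTG was present in 7 of 15 genes called higher, 1 of 8 called lower and 2 of 5 with no call.

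The comparison asked which of these genes differed between UBXN1-knockdown and control cells. After a filter on low counts 37 of the 38 genes were tested. In shUBXN1, 22 were higher and 8 were lower at an adjusted p under 0.05 (quasi-likelihood test of edgeR, Benjamini-Hochberg adjusted over 16863 genes), and 7 were not called. The 22 genes were 59.5% of those tested, beside 28.0% of all genes called higher, and the 8 were 21.6%, beside 28.2% of all genes called lower. The median log2 fold change was 0.28, against 0.016 over all genes tested. Both shUBXN1 libraries lay above both shCon libraries for 24 genes (all genes, 39.4%) and below them for 10 (all genes, 38.6%). With an absolute log2 fold change of at least 0.58 as well, 7 genes were higher (all genes, 18.1%) and 2 were lower (all genes, 14.0%). The study's thresholds, a 2-fold change and an unadjusted p under 0.05, were applied here to the edgeR fit. Past them, ACP5 and FUCA1 were higher and GUSB was lower, against 11.8% and 6.09% of all genes in these directions. The study's methods name TPM and limma. With limma on log2(TPM + 1) or log2(TPM + 0.1), GUSB was under 2-fold, at -0.94 and -0.96. It was also under 2-fold with at least 10 counts in every library (-0.99). The number called lower fell to 5 without the first shCon library and to 3 without the second, and GUSB moved under 2-fold without the second shCon library (log2 fold change -0.98), without the second shUBXN1 library (-0.99) and with total count scaling (-0.93).

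**Figure D1:**
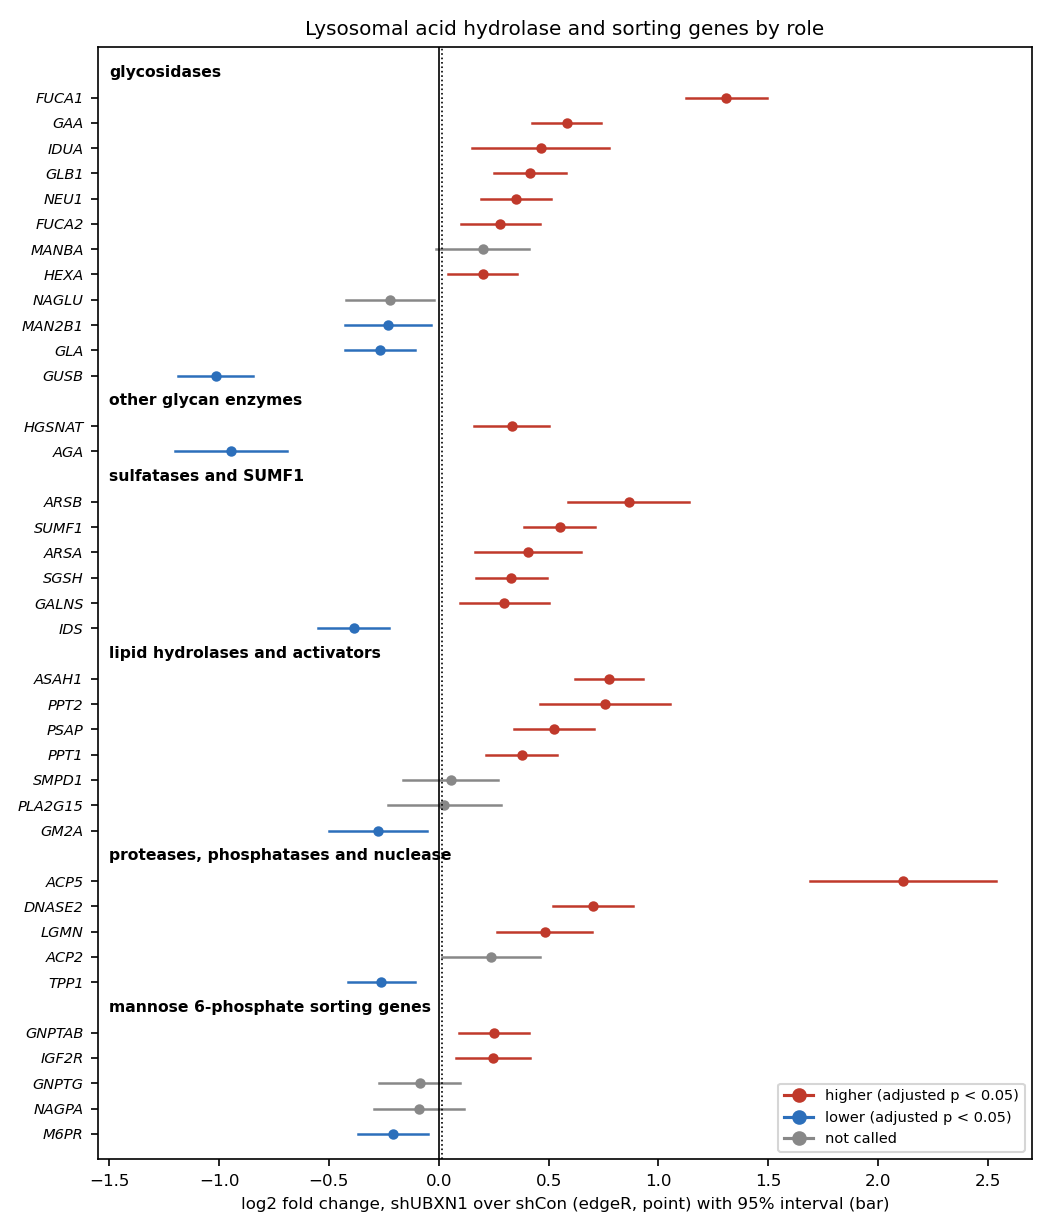
Log2 fold change of the 37 tested genes (x axis; points, with 95% intervals as bars from 2 libraries per group), grouped by role, with the dotted line at the median of all genes tested (0.016). Most points of the sulfatase, lipid and glycosidase groups lie to the right of 0, ACP5 lies farthest right at 2.11 and GUSB farthest left at -1.02, and the sorting genes stay within 0.26 of 0.

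Levels per gene length were compared as TPM, computed with the gene length of the deposited table. Their order ran over a wide range. PSAP, the precursor of the saposins that present sphingolipids to their hydrolases, stood first with 869 and 840 TPM in shCon against 1278 and 1280 TPM in shUBXN1. It made up 30.0% and 29.3% of the summed TPM of all 38 genes in shCon and 35.3% and 35.9% in shUBXN1. GLA, M6PR and HEXA followed by mean TPM in both groups, and with PSAP and FUCA2 they were the 5 genes over 100 TPM in every library. GLA stood at 301 and 305 TPM in shCon and at 263 and 261 TPM in shUBXN1, and M6PR at 251 and 248 TPM in shCon and at 226 and 224 TPM in shUBXN1, so these neighbours kept their order in every library. HEXA (183 and 188 TPM) was below M6PR in shCon, but in shUBXN1 it overlapped with M6PR, at 230.0 and 214 TPM. Other neighbours overlapped too. In shCon, IGF2R (75.8 and 69.0 TPM) overlapped with both TPP1 (74.6 and 73.7 TPM) and GLB1 (78.0 and 75.5 TPM). At the low end of shCon were IDUA, ARSA, ARSB and ACP5, all under 8 TPM. GALC, the β-galactosidase that degrades myelin galactosylceramide, was not tested, with 0 and 2 counts in shCon against 1 and 0 counts in shUBXN1. At that depth no difference in GALC was detectable. The summed level of the 38 genes was 2898 and 2863 TPM in shCon against 3617 and 3564 TPM in shUBXN1. Without PSAP it was 2029 and 2023 TPM against 2339 and 2284 TPM, so both sums were higher in each knockdown library.

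**Figure D2:**
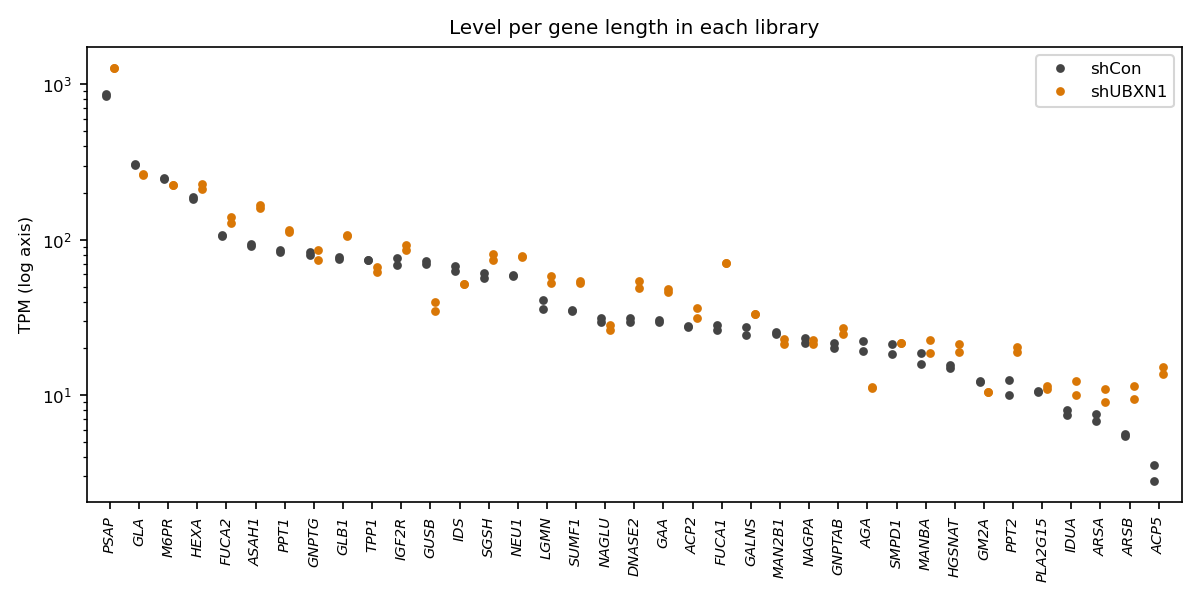
TPM of the 37 tested genes in each library (log y axis), ordered by their mean in shCon; black points are the 2 shCon libraries and orange points the 2 shUBXN1 libraries. The levels run from about 3 TPM for ACP5 in shCon to 1280 TPM for PSAP in shUBXN1, and replicate points lie close together beside the gaps of ACP5, FUCA1, GUSB and AGA.

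Among the glycosidases, which cleave sugars from glycans and glycolipids, 7 of 12 tested genes were higher and 3 were lower. These were 58.3% and 25%, beside 28.0% and 28.2% of all genes. FUCA1 (chr1:23845077-23868290, minus strand, gene positions from GENCODE on GRCh38) encodes the lysosomal α-L-fucosidase. Its counts were 703 and 692 in shCon against 1645 and 1678 in shUBXN1. As CPM, counts brought to a common library size by TMM scaling, the level rose from 27.9 ± 2.18 to 69.1 ± 3.68 CPM (mean ± SD, n = 2 each), a log2 fold change of 1.31 ± 0.0861 (SE, edgeR adjusted p = 2.02e-08). The paralog FUCA2, whose product is largely secreted, changed much less, from 126 and 127 CPM to 142 and 166 CPM (log2 fold change 0.28, edgeR adjusted p = 0.00996). Its call was lost without the second shCon library (0.27) or the second shUBXN1 library (0.15). FUCA1 thus moved from rank 22 to rank 13 of the 38 genes by mean TPM, while FUCA2 stood at 5 and 6.

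GUSB (chr7:65960684-65982215, minus strand), the β-glucuronidase of glycosaminoglycan breakdown, moved the other way. Counts were 2025 and 1923 in shCon against 992 and 888 in shUBXN1. It fell from 78.9 ± 4.17 to 39.0 ± 1.52 CPM (mean ± SD, n = 2 each), a log2 fold change of -1.02 ± 0.0794 (SE, edgeR adjusted p = 1.02e-07). The groups did not overlap, as for 78.0% of all genes tested, and GUSB went from rank 12 to rank 20 by mean TPM. It is widely used as a reference gene for qPCR, and its reads were whole counts in every library.

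GAA (chr17:80101533-80119881, plus strand), the acid α-glucosidase that degrades lysosomal glycogen, had 1420 and 1257 counts in shCon against 1953 and 1896 counts in shUBXN1. It rose from 53.4 ± 0.174 to 80.0 ± 1.46 CPM (mean ± SD, n = 2 each), a log2 fold change of 0.58 ± 0.0736 (SE, edgeR adjusted p = 1.15e-05). The change was just under 1.5-fold (1.498), and with the GC trend removed the log2 fold change was 0.41, still called. The E-boxes shown above have their centres 73 and 28 bases before the RefSeq start site, which lies inside the GENCODE gene, and the second site is within the GENCODE gene bounds. Smaller rises were those of GLB1, the β-galactosidase of GM1 ganglioside (0.42, from 96.7 and 96.5 CPM to 122 and 135 CPM), and of NEU1, the sialidase (0.35, from 95.6 and 101 CPM to 121 and 130 CPM). IDUA, the α-L-iduronidase, went from 8.03 and 8.77 CPM to 12.4 and 10.8 CPM (log2 fold change 0.46). SLC26A1 lies antisense to 13.2% of the exon bases of IDUA, and the IDUA call was lost with DESeq2 (0.46), after removal of the GC trend (0.24), without the first shCon library (0.40) and without the first shUBXN1 library (0.36). HEXA, the α subunit of β-hexosaminidase, had a log2 fold change of 0.20 and lost its call without either shCon library (0.16 and 0.22).

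GLA, the α-galactosidase A of globotriaosylceramide, fell by 0.27 on the log2 scale, from 211 and 220 CPM to 173 and 185 CPM (edgeR adjusted p = 0.00702), and was not called without the second shCon library (-0.25). MAN2B1, the α-mannosidase, had -0.23 and an adjusted p of 0.0413 in edgeR, which did not hold in 8 of 15 alternative analyses, among them those without either shCon library (-0.23 and -0.25) and without the first shUBXN1 library (-0.13). MANBA, the β-mannosidase, and NAGLU, an α-N-acetylglucosaminidase, had log2 fold changes of 0.20 (95% interval -0.01 to 0.41) and -0.22 (95% interval -0.42 to -0.02) and were not called. Both rested on single libraries. MANBA was at 0.31 without the first shCon library, 0.088 without the second and 0.12 without the first shUBXN1 library, and NAGLU was at -0.12 without the first shUBXN1 library and -0.36 without the second. Each was called with the GC trend removed (0.26 and -0.38), without the second shUBXN1 library and with a replicate block. Of the remaining glycan enzymes, AGA (chr4:177430774-177442437, minus strand), the aspartylglucosaminidase that releases asparagine from N-glycans, showed the second largest fall of the list. It had 593 and 467 counts in shCon against 260 and 267 counts in shUBXN1. Its level went from 21.1 ± 1.67 to 11.0 ± 0.636 CPM (mean ± SD, n = 2 each), a log2 fold change of -0.94 ± 0.119 (SE, edgeR adjusted p = 1.10e-05). HGSNAT, the membrane acetyltransferase of heparan sulfate breakdown, had 40.4 and 39.7 CPM in shCon against 51.7 and 49.1 CPM in shUBXN1 (log2 fold change 0.33), and its call was lost without the second shCon library (0.30).

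**Figure D3:**
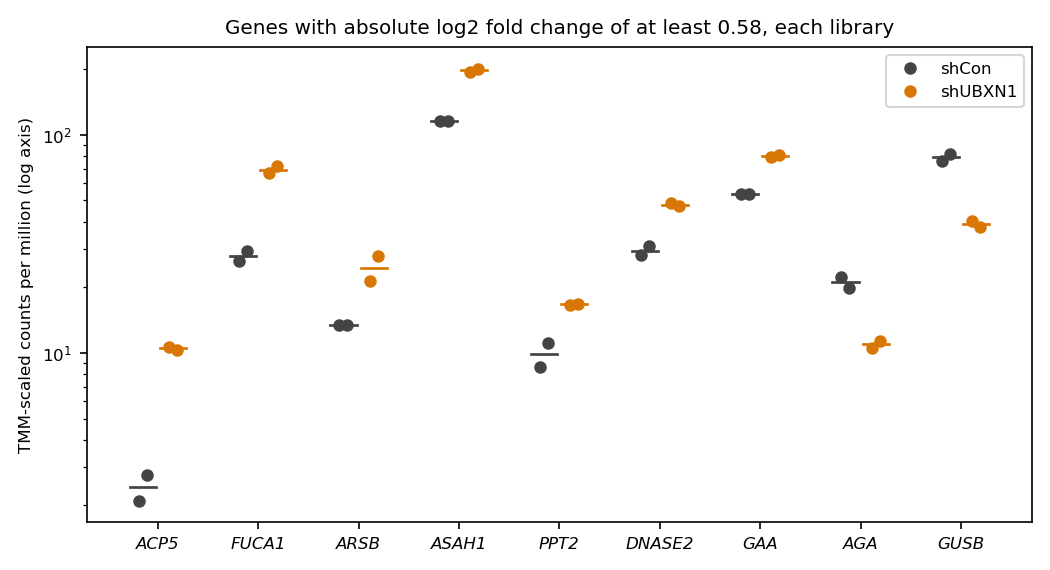
TMM-scaled CPM of the 9 genes with an adjusted p under 0.05 and an absolute log2 fold change of at least 0.58 (log y axis); points are single libraries (n = 2 per group) and horizontal lines the group means. The shUBXN1 points lie above the shCon points for ACP5, FUCA1, ARSB, ASAH1, PPT2, DNASE2 and GAA and below them for AGA and GUSB. The 9 genes were chosen by their difference, and the groups did not overlap for 78.0% of all genes tested.

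Sulfatases remove sulfate groups, and each is inactive until SUMF1 converts a cysteine of its active site to formylglycine. The site lies in a Cys-any-Pro-any-Arg signature, which was searched in the longest reading frame of the GENCODE canonical transcripts of all 5 sulfatase genes in the list and found in each, with a second match in ARSB. The codons of the signature and the bases after it are shown for 3 of them, because this is where SUMF1 and the sulfatases meet. Capitals mark the cysteine codon, which is codon 84 in IDS, codon 91 in ARSB and codon 79 in GALNS.
IDS: TGCgccccgagccgcgtttctttcctc
ARSB: TGCacgccgtcgcggagccagctgctc
GALNS: TGCtcgccatcgagggcggcactgctc
SUMF1 and 4 of the 5 sulfatases were higher in shUBXN1, which was 83.3% of these 6 genes, beside 28.0% of all genes. ARSB (chr5:78777209-78986087, minus strand), the N-acetylgalactosamine-4-sulfatase, had 358 and 315 counts in shCon against 526 and 648 counts in shUBXN1. It rose from 13.4 ± 0.0135 to 24.5 ± 4.54 CPM (mean ± SD, n = 2 each), a log2 fold change of 0.87 ± 0.129 (SE, edgeR adjusted p = 5.27e-05), and the shUBXN1 libraries, at 21.3 and 27.7 CPM, spread more than the controls. SUMF1 itself went from 54.2 and 56.0 CPM to 78.6 and 82.7 CPM (log2 fold change 0.55 ± 0.0750, standard error, edgeR adjusted p = 2.36e-05). ARSA, which acts on sulfatide, SGSH, a sulfamidase of heparan sulfate, and GALNS, which acts on keratan sulfate, had log2 fold changes of 0.41, 0.33 and 0.30. Each of these 3 calls was lost when a library was left out. ARSA was at 0.34 without the second shCon library, SGSH at 0.26 and GALNS at 0.20 without the first shCon library, and GALNS at 0.23 without the second shUBXN1 library. The GALNS call was also lost with DESeq2 and with the GC trend removed (0.21).

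IDS, the iduronate 2-sulfatase, was the sulfatase that was lower. Counts were 6693 and 5663 in shCon against 4469 and 4580 in shUBXN1 (251 and 241 CPM against 181 and 196 CPM, log2 fold change -0.39, edgeR adjusted p = 0.000551). Its value is uncertain, because other genes on the same strand share 75.9% of its exon bases. One of these, ENSG00000241489, had 4388 and 4018 counts in shCon against 4689 and 3992 counts in shUBXN1.

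Of the 7 lipid hydrolases and activators, 4 were higher (57.1%, beside 28.0% of all genes) and 1 was lower (14.3%, beside 28.2%). ASAH1 encodes the acid ceramidase. It had 3079 and 2720 counts in shCon against 4818 and 4704 counts in shUBXN1. It rose from 116 ± 0.210 to 198 ± 4.42 CPM (mean ± SD, n = 2 each), a log2 fold change of 0.77 ± 0.0718 (SE, edgeR adjusted p = 5.55e-07). PSAP, the most abundant gene of the list, went from 31272 and 27450 counts to 40107 and 40931 counts (1173 and 1168 CPM against 1621 and 1748 CPM, log2 fold change 0.52, edgeR adjusted p = 0.000121). The libraries of a group differed by less than the gap between the groups. PPT1, the palmitoyl-protein thioesterase, had 100 and 99.4 CPM in shCon against 123 and 136 CPM in shUBXN1 (log2 fold change 0.38).

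PPT2 (chr6:32153441-32163678, plus strand), a related thioesterase, had 230 and 262 counts in shCon against 412 and 391 counts in shUBXN1 and a log2 fold change of 0.76 (9.89 ± 1.79 against 16.7 ± 0.0379 CPM, SD, n = 2; standard error 0.139, adjusted p = 0.000325, edgeR). The readthrough gene PPT2-EGFL8 covers 49.3% of its exon bases on the same strand, so reads may be divided between them, and it had 91.3 and 72.5 counts in shCon against 294 and 293 counts in shUBXN1. Both were thus higher in each shUBXN1 library. GM2A, the activator protein of GM2 ganglioside breakdown, had -0.28 and an adjusted p of 0.0354 in edgeR. That call did not hold in 9 of 15 alternative analyses, among them those without either shCon library (-0.31 and -0.26) and without the first shUBXN1 library (-0.23). SMPD1, the acid sphingomyelinase, and PLA2G15, a lysosomal phospholipase, overlapped between the groups, with log2 fold changes of 0.055 (95% interval -0.16 to 0.27) and 0.025 (95% interval -0.23 to 0.28).

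ACP5 (chr19:11574653-11579993, minus strand), tartrate-resistant acid phosphatase, which is known from osteoclasts and macrophages, showed the largest rise of the list. Its counts were 56 and 65 in shCon against 263 and 242 in shUBXN1. The level went from 2.43 ± 0.471 to 10.5 ± 0.205 CPM (mean ± SD, n = 2 each), a log2 fold change of 2.11 ± 0.197 (SE, edgeR adjusted p = 5.95e-07). With 3.19 TPM in shCon on average and 14.4 TPM in shUBXN1 it remained one of the less abundant genes, and moved from rank 37 to rank 31. ACP2, the other lysosomal acid phosphatase, was not called at 0.24 (95% interval 0.01 to 0.46), and its value rested on single libraries, at 0.38 (called) without the first shUBXN1 library and 0.060 (not called) without the second. ACP2 was called in 6 of 15 alternative analyses. DNASE2 (chr19:12875209-12881595, minus strand), the acid endonuclease, had 748 and 725 counts in shCon against 1207 and 1100 counts in shUBXN1. It rose from 29.5 ± 1.98 to 47.9 ± 1.26 CPM (mean ± SD, n = 2 each), a log2 fold change of 0.70 ± 0.0857 (SE, edgeR adjusted p = 8.22e-06). LGMN, the asparaginyl endopeptidase legumain, had 34.7 and 40.9 CPM in shCon against 48.4 and 57.1 CPM in shUBXN1 (0.48). TPP1, the tripeptidyl peptidase, had 128 and 130 CPM against 108 and 108 CPM (-0.26), and was not called without the second shCon library (-0.27).

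Differences were small among the genes that tag and carry the hydrolases, from -0.21 to 0.25 as log2 fold change. Of the 5, 2 were higher (40%, beside 28.0% of all genes) and 1 was lower (20%, beside 28.2%). Their median log2 fold change was -0.087, beside 0.33 for the other 32 tested genes of the list. The difference between these medians was not tested. GNPTAB encodes the catalytic subunits of the phosphotransferase that starts the mannose 6-phosphate tag, and it went from 60.9 and 58.4 CPM to 71.3 and 70.7 CPM (0.25). GNPTG, the γ subunit of the same enzyme, overlapped between the groups (39.2 and 42.6 CPM against 39.9 and 37.0 CPM, 95% interval of the log2 fold change -0.27 to 0.10). UNKL and another gene lie antisense to 50.6% of the exon bases of GNPTG. NAGPA, which uncovers the tag, had 25.1 and 24.1 CPM against 22.9 and 23.4 CPM (-0.091, not called), and was called lower with the GC trend removed (-0.23).

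The receptors moved in opposite directions by small amounts. IGF2R, the large cation-independent receptor, had 524 and 491 CPM in shCon against 603 and 602 CPM in shUBXN1 (log2 fold change 0.25, edgeR adjusted p = 0.0144). M6PR, the cation-dependent receptor, had 303 and 307 CPM in shCon against 255 and 273 CPM in shUBXN1 (-0.21, edgeR adjusted p = 0.0281). The groups did not overlap for either receptor, as for 78.0% of all genes tested. The calls of both, and that of GNPTAB, were sensitive to single libraries. Without the first shCon library IGF2R (0.29) and M6PR (-0.22) were not called, and without the second IGF2R (0.19), M6PR (-0.21) and GNPTAB (0.21) were not. The M6PR call was also lost with total count scaling (-0.12) and with the GC trend removed (-0.16). PHC1 lies antisense to 30.9% of the exon bases of M6PR and had 417 and 356 counts in shCon against 658 and 607 counts in shUBXN1. Per length, M6PR remained above IGF2R in every library, at 224 to 251 TPM against 69.0 to 92.9 TPM.

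Arranged by substrate, the calls of each route are given beside the 28.0% of all genes called higher and the 28.2% called lower, and nothing is read from a route having calls in both directions. For heparan sulfate, IDUA, SGSH and HGSNAT were higher, IDS and GUSB were lower, and NAGLU was not called (median log2 fold change 0.054 over 6 genes). For sphingolipids, 6 of 9 tested genes were higher (GLB1, HEXA, ARSA, PSAP, ASAH1 and NEU1) and GLA and GM2A were lower, with a median of 0.35. For glycoprotein glycans, FUCA1, NEU1, HEXA and GLB1 were higher, AGA and MAN2B1 were lower and MANBA was not called, with a median of 0.20. Some genes stand in more than 1 route, so these counts are not independent.

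Other genes of the lysosome were read from the same fit. Of 80 tested genes in 5 lists, 44 were higher (55.0%, beside 28.0% of all genes) and 13 were lower (16.2%, beside 28.2%), with a median log2 fold change of 0.31. Cathepsins had 6 of 12 higher and 1 lower, from CTSK (2.05) to CTSC (-0.52). Of 24 other soluble lysosomal proteins, 13 were higher and 3 lower, with PLBD1, a phospholipase B-like protein, at 1.82 and the ribonuclease gene RNASET2 at -0.93. Among 17 lysosomal membrane genes 10 were higher and 3 lower, from the cholesterol transporter NPC1 (1.42) to TMEM192 (-0.95). Other enzyme transport genes had 6 of 16 higher (37.5%, beside 28.0% of all genes) and 5 lower (31.2%, beside 28.2%). Here SORT1, the sorting receptor sortilin, had 45.6 and 39.6 CPM in shCon against 122 and 134 CPM in shUBXN1 (1.59), and AP1B1, a subunit of the AP-1 adaptor that loads carriers at the Golgi, had 93.7 and 102 CPM in shCon against 35.5 and 36.7 CPM in shUBXN1 (-1.44). In the list of TFEB relatives and their regulators 9 of 11 were higher and 1 lower, with FNIP2 at 0.99 and the Ragulator gene LAMTOR1 at -1.19. TFEB, TFE3, TFEC and MITF themselves are named after their values were seen. TFEC, with 19.39 and 19.45 CPM in shCon against 19.03 and 18.24 CPM in shUBXN1, was not called (-0.059). MITF was at low counts, 13 and 8 in shCon against 72 and 33 in shUBXN1 (2.36). TFEB had 3.26 and 2.94 CPM in shCon against 5.25 and 5.43 CPM in shUBXN1 (0.78, edgeR adjusted p = 0.00786), and TFE3 had 135 and 143 CPM against 174 and 191 CPM (0.39).

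**Figure D4:**
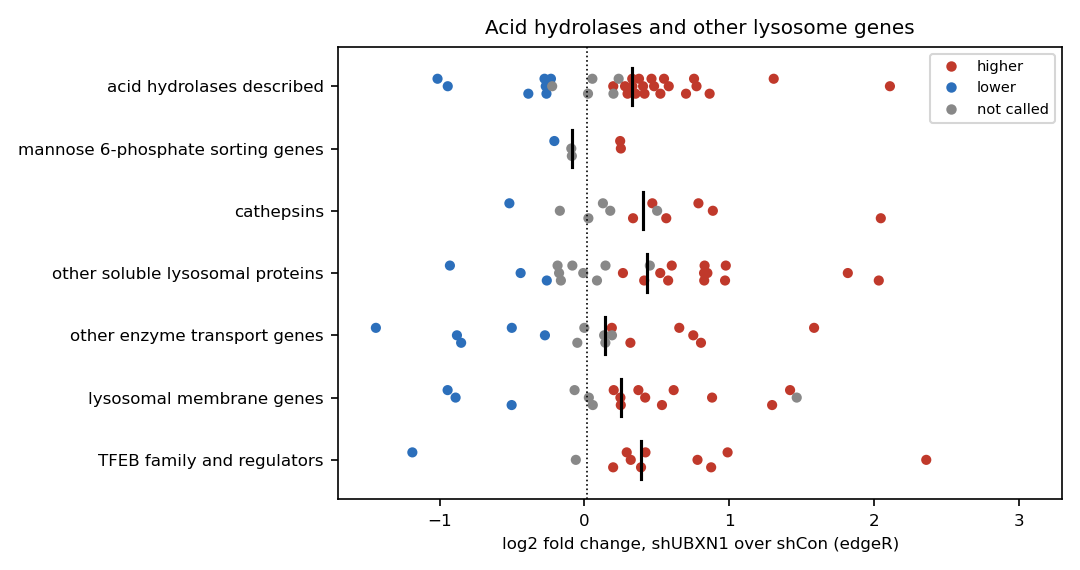
Log2 fold change (x axis) of the acid hydrolases, the mannose 6-phosphate sorting genes and 5 lists of other lysosome genes (rows); each point is a gene, coloured by its call at an adjusted p under 0.05, black bars are list medians and the dotted line is the median of all genes tested (0.016). Medians of the hydrolases (0.33), cathepsins (0.40) and other soluble proteins (0.43) lie to the right of those of the sorting genes (-0.087) and other transport genes (0.14).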

How the data were processed

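Estimated counts per gene, given to 2 decimals and not normalized, were deposited by the authors with a gene length. The submitters' processing notes name HISAT2 2.0.4, StringTie 1.3.0 and GRCh37, and the paper's methods name GRCh38; 61369 of the 61541 gene IDs (99.72%) are in GENCODE release 44 on GRCh38, from which symbols, overlaps and GC content were taken. The annotation release and strand setting are not given in the sources used here. Counts were rounded, filtered with filterByExpr, scaled by TMM and compared by the quasi-likelihood test of edgeR 4.0.16 (glmQLFit, then glmQLFTest, under R 4.3.3) without a block. In all 16863 genes were tested, and p-values were adjusted over all of them. Standard errors were derived from the log2 fold change and the F statistic. TPM was computed from the unrounded counts and deposited lengths. The biological coefficient of variation was 0.0711, on 2 residual degrees of freedom a gene. Replicates differed by more than sampling noise (chi-square per degree of freedom 3.65 and 7.77). The fit was also run on simulated counts with 200 changed genes. In the data 9478 genes were called, so that run did not test the scaling under so many changes. Alternatives used DESeq2 1.42.0, limma 3.58.1, other scalings, filters and pseudocounts, a replicate block, removal of GC trends and each library left out.

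Members and lists were chosen with earlier results of these data known. All members may be named; those with an adjusted p under 0.05 and an absolute log2 fold change of at least 0.58 (about 1.5-fold) are given in full. Of each other list, the largest rise and fall past that p and a mean log2 CPM of 2 are named. Protein sequences were not used here, so the planned identities between paralogs were not computed.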

Additional observations from a re-analysis of the deposited data

How the results depend on the processing

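Each of the 30 called genes kept its direction in all 15 alternative analyses, and 13 of the 22 with a rise, and 3 of the 8 with a fall (GUSB, AGA and IDS), kept their call in all of them too. With a library left out, 16 to 22 genes were higher and 3 to 9 lower, 2 to 3 were higher past 2-fold and 1 was lower in each case (AGA in place of GUSB without the second shCon or the second shUBXN1 library); the UBXN1 log2 fold change was -2.13 to -1.94. Total count scaling left 5 genes lower, as did an adjusted p under 0.01. Past 2-fold, 0 genes were lower with total count scaling and with at least 10 counts in every library. The same held with limma on log2(TPM + 1) or log2(TPM + 0.1). GUSB, at -1.02 in the main fit, was at -0.93, -0.99, -0.94 and -0.96 in these settings, in that order. Why its value shifted was not tested. With a 1.5-fold threshold 6 genes were higher and 2 lower. DESeq2 called 20 higher and 6 lower, and removal of the GC trend 21 and 8. Over all genes, total count scaling moved the median log2 fold change from 0.016 to 0.101. Among uncalled genes the direction turned for SMPD1 (-0.040 with the GC trend removed, -0.039 without the second shCon library and -0.012 without the second shUBXN1 library, up to 0.141 without the first shCon library) and PLA2G15 (-0.063 and -0.075 with the GC trend removed and without the second shUBXN1 library, 0.104 without the first and at most 0.108 with total count scaling). The groups share replicate numbers, but the deviations of same-numbered libraries correlated with r = 0.0393 across genes and nothing in the labels pairs them. With the replicate block 24 genes were higher and 9 lower, and MANBA, NAGLU and ACP2 were called.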
